A study of Mus musculus with 83 samples.

Results

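The folding and stress machinery of the endoplasmic reticulum was followed in the colon of aging mice as a group of 32 genes. The members are chaperones, disulfide isomerases, degradation and translocation factors, and the sensors and transcription factors of the unfolded protein and integrated stress responses. They were chosen by name for these roles. All 32 were found in the count table, which holds 37764 genes, through their Ensembl identifiers and the symbols of an annotation of the same genome build (GRCm38). All 32 also passed the filter on low counts, which left 18325 genes for testing. The mice were male C57BL/6J/Ukj animals, kept for aging alone according to the labels, and RNA was taken from the proximal section of the colon. The youngest group (3 months) had 16 mice, as did those of 9 and of 15 months, while 17 mice were aged 24 months and 18 were aged 28 months. Each mouse gave 1 library of polyadenylated RNA, and the libraries were prepared in 3 batches with 4 to 7 mice of each age per batch. Batch was the only label besides age that differed between mice.

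Proteins that are secreted or placed in membranes fold inside the endoplasmic reticulum, where chaperones hold unfolded chains, lectins retain sugar-bearing proteins and isomerases join cysteines. When unfolded protein builds up, the sensors ATF6, IRE1 (Ern1 and, in mucous epithelia, Ern2) and PERK raise the transcription of the folding and degradation genes, through ATF6 itself, XBP1 and ATF4. In the colon this machinery is heavily used by goblet cells, which secrete mucin, and by the plasma cells of the lamina propria, which secrete antibody. Gene counts do not show the splicing of Xbp1, the cleavage of ATF6 or any protein, so the values below are RNA levels alone. In RNA from whole tissue, fewer cells of a type and less RNA per cell cannot be told apart.

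The libraries held between 23026370 and 75838290 counted read pairs, with a median of 35495123. The colon factors Cdx1 and Cdx2 and the epithelial genes Vil1 and Car1 were present in every library, the lowest value being 231 CPM (read counts scaled to a common library size) for Cdx1. Markers of pancreatic acinar cells summed to 207, 94.1 and 106 CPM in 3 libraries, from 24-month mice 11 and 16 and 28-month mouse 14, and to at most 5.71 CPM in the other 80. A count of members called is also given without these 3 libraries where it changed by more than 1.

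Levels are given in CPM of the normalized library size, and only TPM, the same kind of share after division by gene length, compares one gene with another. By median TPM over all mice, the isomerase P4hb stood highest at 1110, followed by Calr at 977, Pdia3 at 682, Hspa5 at 548 and Hsp90b1 at 473. The stress response genes Trib3 and Chac1 stood lowest at 1.83 and 5.47 TPM, below Derl3 at 11, Ddit3 at 22.4 and Ern1 at 25.1. Ern2, the epithelial form of IRE1, stood at 129 TPM, above the widely expressed Ern1. Trib3 was read from 4 to 97 times per library and Chac1 from 29 to 281 times, while every other member had at least 123 read pairs in every library, so the 2 lowest members carry the most counting noise. The annotated spans of Hsp90b1, Pdia4, Manf and Atf6 each overlap the span of at least 1 other gene on the same strand. Whether their exons overlap was not examined.

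Promoter sequence was searched for the elements through which these genes are known to answer stress. RefSeq windows on GRCm38.p6, from 250 bases before to 50 bases after the start of the gene, were at hand for 28 members, and Atf6, Ern2, Hyou1 and Manf had no entry. The endoplasmic reticulum stress element (ERSE, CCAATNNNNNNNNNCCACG), bound by ATF6 and XBP1 together with NF-Y, was found on either strand in the windows of 9 members. They were Calr, Canx, Creld2, Derl3, Dnajc3, Hsp90b1 (with 2 copies), Hspa5, Pdia6 and Syvn1. Among all 32851 windows, 39 (0.119%) held it. The shorter ERSE-II (ATTGGNCCACG) was found in Herpud1 and, after the start, in Dnajb11, against 12 of all windows (0.0365%). The ATF4 element (CARE, TGATGNAA) was found in Asns, Chac1, Herpud1 and, after the start, in Trib3, against 1304 windows (3.97%). In the members no match overlapped a match to another of the 3 motifs. The sites below are those of members whose values the results turn on, read 5′ to 3′ on the strand of the gene with 5 flanking bases on each side. Capitals mark the fixed letters of the motif, which appear as their reverse complement where the match lies on the other strand. Distances are counted from the RefSeq start, which can differ from the start in the GENCODE annotation that gives the gene positions elsewhere in the text. For Hspa5 and Asns the printed site lies inside the GENCODE gene, after its start. A match is a description of these letters and not evidence that a factor was bound.
Hspa5, ERSE, chr2:34772020-34772048, plus strand, beginning 65 bases before the start: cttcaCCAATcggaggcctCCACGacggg
Pdia6, ERSE, chr12:17266486-17266514, plus strand, 98 bases before the start: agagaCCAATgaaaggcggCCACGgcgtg
Dnajc3, ERSE, chr14:118937822-118937850, plus strand, 105 bases before the start: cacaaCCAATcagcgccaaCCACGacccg
Creld2, ERSE reversed, chr15:88819515-88819543, plus strand, 126 bases before the start: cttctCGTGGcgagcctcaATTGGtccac
Hsp90b1, ERSE, chr10:86705633-86705661, minus strand, 212 bases before the start: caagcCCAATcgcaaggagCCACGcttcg
Hsp90b1, ERSE reversed, chr10:86705528-86705556, minus strand, 107 bases before the start: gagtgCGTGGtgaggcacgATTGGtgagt
Derl3, ERSE reversed, chr10:75893237-75893265, plus strand, 156 bases before the start: tctacCGTGGgacttccccATTGGctagc
Herpud1, ERSE-II, chr8:94386372-94386392, plus strand, 52 bases before the start: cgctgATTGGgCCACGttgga
Chac1, CARE reversed, chr2:119351044-119351061, plus strand, 193 bases before the start: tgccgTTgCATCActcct
Asns, CARE, chr6:7693220-7693237, minus strand, 23 bases before the start: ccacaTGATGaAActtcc

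Most members were lowest in the oldest mice, 24 of 32 having the lowest of their 5 age medians at 28 months. The median over mice was lower at 28 than at 15 months for 31 of the 32 genes, with Atf5 as the exception, and for 26 of them the highest of the 5 age medians was that of 15 months. The counts below come from edgeR's quasi-likelihood test with age and batch in the model, and a gene is said to rise or fall where its p-value, adjusted over all 18325 genes by the Benjamini-Hochberg method, was below 0.1. Between 15 and 28 months 27 members fell and 0 rose, where 22.2% of all genes tested fell and 20.2% rose. The median log2 fold change was -0.32 over the members and -0.003 over all genes. Between 3 and 28 months 22 members fell and 3 rose (Trib3, Atf5 and Herpud1), against 25.9% and 23.5% of all genes, with a median of -0.17 over the members and -0.009 over all genes. All 27 and all 25 of these members had the same sign within each of the 3 batches. With scores of goblet and plasma cell markers (described further on) in the model, 14 members fell and 0 rose from 15 to 28 months. Of all genes 16.4% were then called in place of 42.4%. From 3 to 28 months 18 members fell and 3 rose in that model (36.5% of all genes in place of 49.4%). The members whose calls were lost are named further on.

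The decrease was seen in both steps of late life. Between 15 and 24 months 17 members fell and 0 rose, where 7.24% of all genes fell and 6.28% rose, and 16 of the 17 had the same sign in every batch (Ddit3 did not). Without the 3 libraries with acinar markers the count was 12, and the share of all genes called in either direction was 8.68% in place of 13.5%. Between 24 and 28 months 21 members fell and 0 rose, where 6.01% of all genes fell and 5.66% rose, all 21 with the same sign in every batch. With the goblet and plasma cell scores in the model the counts for these 2 steps were 3 (6.77% of all genes) and 1 (1.28%). With a heat shock score, described further on, they were 2 (6.71%) and 22 (21 lower, 12.3%). These comparisons share the 15-month, 24-month or 28-month mice and are not independent of each other.

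Little was called earlier in life. Between 3 and 9 months Trib3 rose and Syvn1 fell, 1 of 32 in each direction, against 3.64% of all genes higher and 5.05% lower. With goblet and plasma cell scores (means of marker genes, described further on) in the model, 8 members fell and 0 rose over these ages, where 11% of all genes were called in place of 8.69%. The goblet score alone gave 10 lower and 0 higher (11.5% of all genes), the plasma score alone 3 lower and 1 higher (10.1%), and a heat shock score 0 called (1.84%). Between 9 and 15 months 0 members were called by edgeR and 0 by DESeq2, against 0.251% of all genes higher and 0.18% lower. In that comparison the median log2 fold change was 0.11 over the members and 0.009 over all genes, and 14 of the 32 members had an unadjusted p below 0.05, as did 9.18% of all genes. Over all 5 ages together, 29 members differed, where 54.9% of all genes did, and those not called were Herpud1, Sel1l and Atf6. Curvature, a trend over age other than linear, was called for 23 members and for 16.2% of all genes. The count was 0 with both scores in the model (2.02% of all genes), 4 with the goblet score (3.69%) and 11 with the plasma score (7.39%). An age effect that differed between batches was called for 0 members and for 0.0218% of all genes, with 2 members (Sel1l and Atf6) at an unadjusted p below 0.05 (edgeR).

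**Figure D1:**
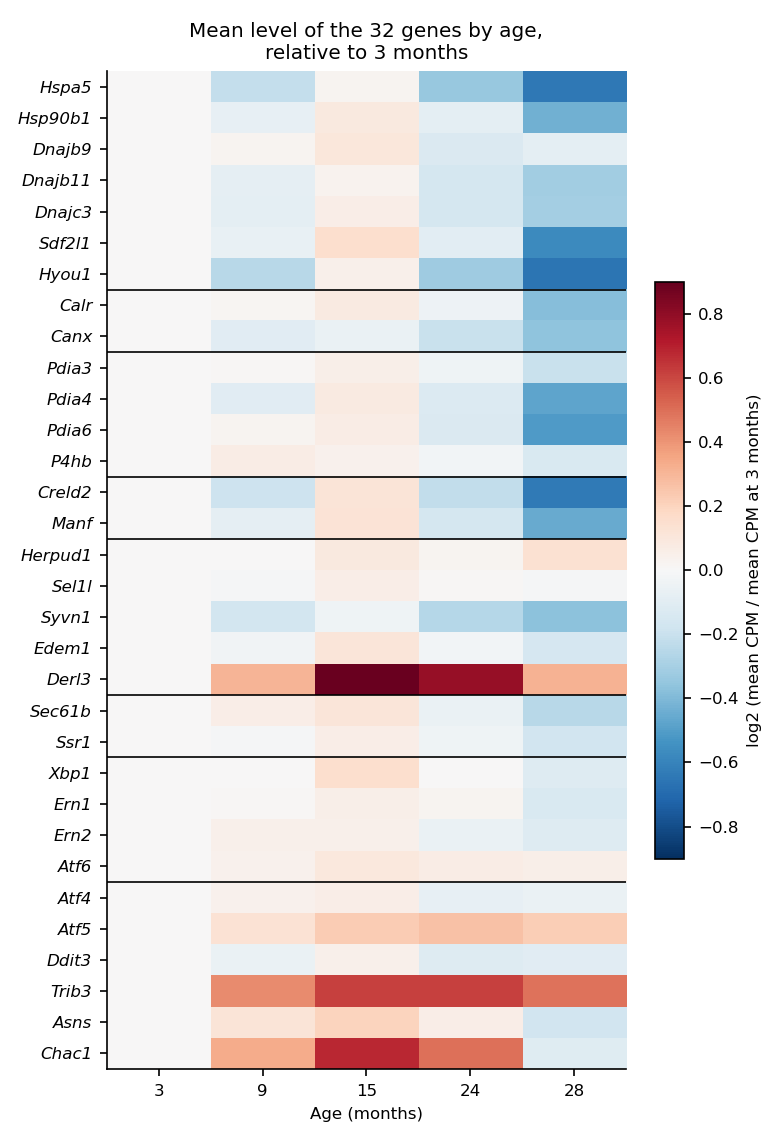
Mean level of each of the 32 genes (rows, grouped by role between black lines) at each age (columns, in months), as the log2 ratio of the mean CPM to that of the 3-month mice. Blue, a lower mean than at 3 months, fills most of the 28-month column, while the means of Trib3, Atf5, Derl3, Herpud1 and, by little, Atf6 are above those of 3 months there.

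The chaperones of the Hsp70 and Hsp90 cycles all fell between 15 and 28 months, 7 of 7, and 6 of them also between 3 and 28 months. Hspa5 (BiP, ENSMUSG00000026864, chr2:34771970-34777547) is the Hsp70 of the lumen and holds the stress sensors inactive. At 3 months its lowest, median and highest mouse had 552, 908 and 1510 CPM, at 9 months 618, 783 and 997 CPM, and at 15 months 630, 913 and 1190 CPM. At 24 months they had 512, 704 and 1020 CPM and at 28 months 435, 583 and 744 CPM. All 18 of the 28-month mice lay below the 15-month median and 12 of them below the lowest 15-month mouse, although the groups overlapped. Hspa5 fell by 37.2% from 15 to 28 months (log2 fold change -0.67 ± 0.10 standard error (SE), adjusted p = 1.24e-07), with -0.71, -0.67 and -0.56 within the 3 batches. From 3 to 28 months the log2 fold change was -0.64 ± 0.10 (adjusted p = 1.58e-07), with -0.49, -0.45 and -0.96 within the batches.

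Hyou1 (GRP170), which releases nucleotide from Hspa5, had 127, 209 and 337 CPM at 3 months, then 136, 177 and 245 CPM at 9 months, and 108, 221 and 280 CPM at 15 months as lowest, median and highest mouse. It had 109, 157 and 238 CPM at 24 months and 93.1, 133 and 162 CPM at 28 months. The 28-month mice were again all below the 15-month median, but only 3 of them were below the lowest 15-month mouse. That was mouse 16 at 108 CPM, and the next lowest of that age had 154 CPM. Mouse 16 was also the lowest 15-month mouse for Hspa5, Hsp90b1, Calr and Canx, so counts against the lowest mouse there rest on 1 library. Its log2 fold change was -0.71 ± 0.11 from 15 to 28 months (adjusted p = 1.64e-07) and -0.66 ± 0.11 from 3 to 28 months (adjusted p = 3.46e-07).

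Sdf2l1, a partner of Hspa5, had 36.5, 49.2 and 72.9 CPM at 3 months, then 38.2, 49.6 and 74.1 CPM at 9 months, and 43.3, 61.0 and 73.8 CPM at 15 months. At 24 months the mice had 38.0, 46.1 and 70.1 CPM and at 28 months 26.5, 36.0 and 46.1 CPM. At 28 months 15 of 18 mice were below the lowest 15-month mouse. The log2 fold change from 15 to 28 months was -0.73 ± 0.09 (adjusted p = 2.04e-09).

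Hsp90b1 (GRP94), the Hsp90 of the lumen, had 498, 645 and 907 CPM at 3 months, then 539, 641 and 750 CPM at 9 months, and 527, 701 and 834 CPM at 15 months. It had 521, 634 and 800 CPM at 24 months and 399, 480 and 691 CPM at 28 months. The change from 15 to 24 months (-0.18 ± 0.07, adjusted p = 0.105) was not called, and Hsp90b1 fell from 24 to 28 months (-0.34 ± 0.07, adjusted p = 0.000687) and from 15 to 28 months (-0.51 ± 0.07, adjusted p = 1.37e-08).

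Among the J-domain partners, Dnajc3 (p58IPK) had the lowest p-value. Its mice ranged over 133, 172 and 222 CPM at 3 months, then 133, 162 and 190 CPM at 9 months, and 162, 178 and 209 CPM at 15 months. At 24 months they had 132, 151 and 195 CPM and at 28 months 121, 139 and 162 CPM, where 17 of 18 mice were below the lowest 15-month mouse. It fell by 21.9% from 15 to 28 months (-0.36 ± 0.04, adjusted p = 1.63e-09) and fell by 18.8% from 3 to 28 months (-0.30 ± 0.04, adjusted p = 6.69e-08). Dnajb11 (ERdj3) had 149, 172 and 241 CPM at 3 months, then 156, 171 and 217 CPM at 9 months, and 146, 184 and 231 CPM at 15 months. It had 138, 162 and 192 CPM at 24 months and 120, 145 and 163 CPM at 28 months, and its log2 fold change from 15 to 28 months was -0.35 ± 0.05 (adjusted p = 1.97e-07). Dnajb9 (ERdj4) fell from 15 to 24 months (-0.23 ± 0.06, adjusted p = 0.0149) and from 15 to 28 months (-0.16 ± 0.06, adjusted p = 0.0316). Its estimates were 0.06 ± 0.06 from 24 to 28 months (adjusted p = 0.588) and -0.07 ± 0.06 from 3 to 28 months (adjusted p = 0.387), and its difference from the other chaperones was not tested.

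**Figure D2:**
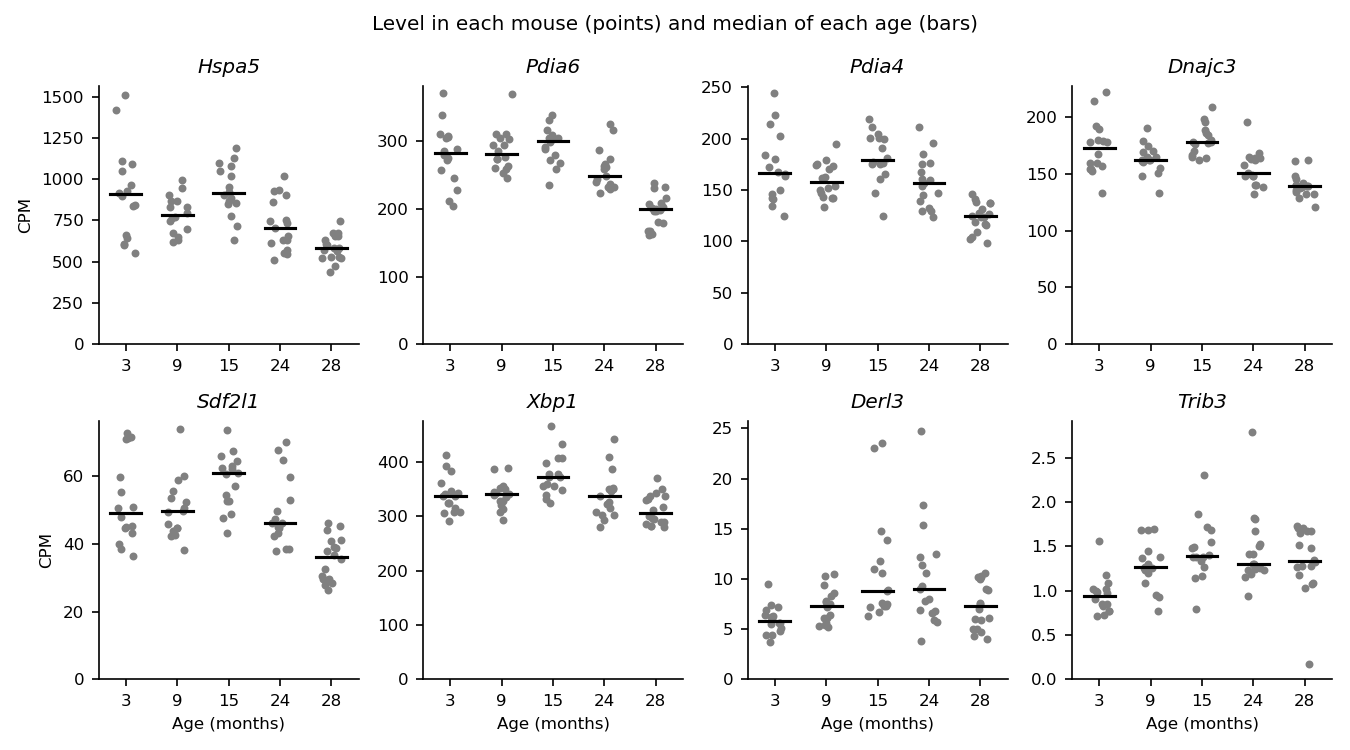
Level in every mouse (grey points, CPM on the vertical axis from 0) and the median of each age (black bars) for 8 of the 32 genes, with age in months on the horizontal axis. For Hspa5, Pdia6, Pdia4, Dnajc3 and Sdf2l1 the 28-month points lie low and close together, 2 mice of 15 months and 1 of 24 months stand high for Derl3, and most Trib3 points lie above the 3-month median from 9 months on.

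The lectin chaperones Calr and Canx, which retain proteins that still carry a glucose on their sugar chain, both fell. Calr had 734, 962 and 1240 CPM at 3 months, then 839, 951 and 1330 CPM at 9 months, and 709, 1050 and 1210 CPM at 15 months. It had 794, 914 and 1140 CPM at 24 months and 527, 780 and 922 CPM at 28 months. All 28-month mice lay below the 15-month median, and the log2 fold change was -0.46 ± 0.06 from 15 to 28 months (adjusted p = 2.7e-08) and -0.38 ± 0.06 from 3 to 28 months (adjusted p = 1.2e-06). Canx had 362, 455 and 611 CPM at 3 months, then 374, 442 and 493 CPM at 9 months, and 342, 450 and 531 CPM at 15 months. It had 362, 415 and 460 CPM at 24 months and 305, 362 and 477 CPM at 28 months. In this membrane-bound lectin 17 of 18 of the 28-month mice were below the 15-month median. Canx had a log2 fold change of -0.35 ± 0.05 against 3 months (adjusted p = 6.21e-09) and of -0.29 ± 0.05 against 15 months (adjusted p = 1.23e-06).

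All 4 disulfide isomerases fell from 15 to 28 months and from 3 to 28 months. Pdia6 (ENSMUSG00000020571, chr12:17266545-17284770), which also trims IRE1 signals, had the lowest p-value of the members over all ages (adjusted p = 2.18e-13). Its lowest, median and highest mouse had 204, 283 and 371 CPM at 3 months, then 245, 281 and 370 CPM at 9 months, and 235, 300 and 338 CPM at 15 months. It had 224, 249 and 326 CPM at 24 months and 161, 199 and 238 CPM at 28 months, where 17 of 18 mice were below the lowest 15-month mouse. Pdia6 fell by 32.8% from 15 to 28 months (-0.57 ± 0.06, adjusted p = 2.28e-12), and its log2 fold change from 24 to 28 months was -0.38 ± 0.06 (adjusted p = 1.32e-05). Pdia4 (ERp72) had 125, 167 and 244 CPM at 3 months, then 134, 158 and 195 CPM at 9 months, and 125, 179 and 219 CPM at 15 months. It had 124, 157 and 211 CPM at 24 months and 98.2, 125 and 146 CPM at 28 months. With every 28-month mouse below the 15-month median, Pdia4 had a log2 fold change of -0.56 ± 0.07 from 15 to 28 months (adjusted p = 2.98e-09) and of -0.48 ± 0.07 from 3 to 28 months (adjusted p = 7.76e-08). The isomerases with the highest TPM had smaller log2 fold changes from 15 to 28 months, -0.24 ± 0.04 for Pdia3 (ERp57, partner of the lectins) and -0.18 ± 0.04 for P4hb (PDI) (adjusted p = 5.84e-06 and 4.95e-05).

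Both small secreted proteins known to be induced by stress fell in late life. Creld2 fell by 40.5% from 15 to 28 months (-0.75 ± 0.11, adjusted p = 7.06e-08) and Manf fell by 32.8% (-0.57 ± 0.09, adjusted p = 1.4e-07). Against 3 months the log2 fold changes were -0.64 ± 0.11 and -0.45 ± 0.09 (adjusted p = 1.38e-06 and 1.13e-05). With goblet and plasma cell scores in the model the 15 to 28 month estimates were -0.29 for Creld2 (adjusted p = 0.128) and -0.18 for Manf (adjusted p = 0.229), and both calls were lost. The 28-month mice had 25.2 to 43.0 CPM of Creld2 (median 34.2) and 61.5 to 96.8 CPM of Manf (median 82.6). For Manf all 18 lay below the lowest 15-month mouse at 101 CPM, and for Creld2 15 of 18 lay below the lowest at 40.1 CPM.

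Of the 5 degradation genes 3 fell from 15 to 28 months and 0 rose, where 22.2% of all genes fell and 20.2% rose. Syvn1 (HRD1), the ubiquitin ligase of the retrotranslocation complex, fell from 3 to 9 months (-0.19 ± 0.06, adjusted p = 0.0712) and from 15 to 28 months (-0.34 ± 0.06, adjusted p = 9.74e-06). The 3 to 9 month call of Syvn1 was lost without the filter, with only the 2 ages compared and at a threshold of 0.05. It was also lost with a smooth muscle or a heat shock score in the model. Sel1l, the scaffold of Syvn1, was called in no comparison, with -0.07 ± 0.04 from 15 to 28 months (adjusted p = 0.168) and -0.02 ± 0.04 from 3 to 28 months (adjusted p = 0.772). Edem1, which marks misfolded glycoproteins, fell from 15 to 28 months (-0.26 ± 0.04, adjusted p = 1.08e-06). Herpud1, an ERSE-II gene and stress-induced adaptor of the complex, was 1 of the 3 members that rose from 3 to 28 months, by 9.25% (0.13 ± 0.06, adjusted p = 0.061), a call lost with the replicate number as a block (0.11, adjusted p = 0.124). Against 15 months it had an estimate of 0.03 ± 0.06 (adjusted p = 0.681). The difference between Herpud1 and the other members was not tested.

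Derl3, the derlin of professional secretory cells (ENSMUSG00000009092, chr10:75893413-75895941), had the widest spread of the degradation genes. Its lowest, median and highest mouse had 3.66, 5.79 and 9.45 CPM at 3 months, then 5.2, 7.31 and 10.5 CPM at 9 months, and 6.31, 8.80 and 23.5 CPM at 15 months. It had 3.83, 9.00 and 24.7 CPM at 24 months and 3.99, 7.26 and 10.6 CPM at 28 months. The groups overlapped widely and the highest values belonged to a few mice of 15 and 24 months. Derl3 fell from 15 to 28 months (-0.55 ± 0.16, adjusted p = 0.00583), with -1.04, -0.34 and -0.17 within the batches, and from 24 to 28 months (-0.47 ± 0.16, adjusted p = 0.0582). The 15 to 28 month estimate was -0.10 with the plasma score in the model (adjusted p = 0.293), 0.25 with the goblet score (adjusted p = 0.421) and -0.06 with both (adjusted p = 0.729), so the call was lost in each and the direction turned in one. From 3 to 28 months it had an estimate of 0.29 ± 0.17 (adjusted p = 0.146), and from 9 to 15 months 0.56 ± 0.17 (adjusted p = 0.172).

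Both translocation genes fell from 15 to 28 months and from 3 to 28 months, and both lost the 15 to 28 month call with goblet and plasma cell scores in the model. The log2 fold changes of Sec61b, a subunit of the channel, were -0.36 ± 0.06 (adjusted p = 1.18e-06) and -0.25 ± 0.06 (adjusted p = 0.000374). Those of Ssr1, a subunit of the translocon-associated complex, were -0.22 ± 0.04 (adjusted p = 1.1e-05) and -0.16 ± 0.04 (adjusted p = 0.00085).

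Of the 4 sensors and their factors 3 fell from 15 to 28 months, where 22.2% of all genes fell. The median log2 fold change was -0.18 over the 4. Xbp1 (ENSMUSG00000020484, chr11:5520659-5525893), the factor made active when IRE1 splices its RNA, had 291, 338 and 413 CPM at 3 months, then 294, 341 and 390 CPM at 9 months, and 325, 373 and 467 CPM at 15 months. It had 280, 337 and 443 CPM at 24 months and 280, 307 and 370 CPM at 28 months. All 28-month mice were below the 15-month median, and Xbp1 fell by 17.2% from 15 to 28 months (-0.27 ± 0.05, adjusted p = 5.45e-06) and fell by 8.15% from 3 to 28 months (-0.12 ± 0.05, adjusted p = 0.0325). The latter call was lost with the heat shock score (-0.01, adjusted p = 0.952) or the goblet score (-0.02, adjusted p = 0.824) in the model. Ern2 (ENSMUSG00000030866, chr7:122169893-122186207) had 86.5, 131 and 155 CPM at 3 months, then 79.6, 133 and 156 CPM at 9 months, and 106, 132 and 154 CPM at 15 months. It had 89.6, 119 and 148 CPM at 24 months and 89.6, 118 and 133 CPM at 28 months, with wide overlap and 17 of 18 of the oldest mice below the 15-month median. It fell by 11.4% from 15 to 28 months (-0.17 ± 0.06, adjusted p = 0.0184) and fell by 8.44% from 3 to 28 months (-0.13 ± 0.06, adjusted p = 0.0802). Ern1 fell by a like amount (-0.18 ± 0.05 from 15 to 28 months, adjusted p = 0.00181). Atf6 was called in no comparison, with -0.04 ± 0.04 from 15 to 28 months (adjusted p = 0.383) and 0.05 ± 0.04 from 3 to 28 months (adjusted p = 0.257).

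**Figure D3:**
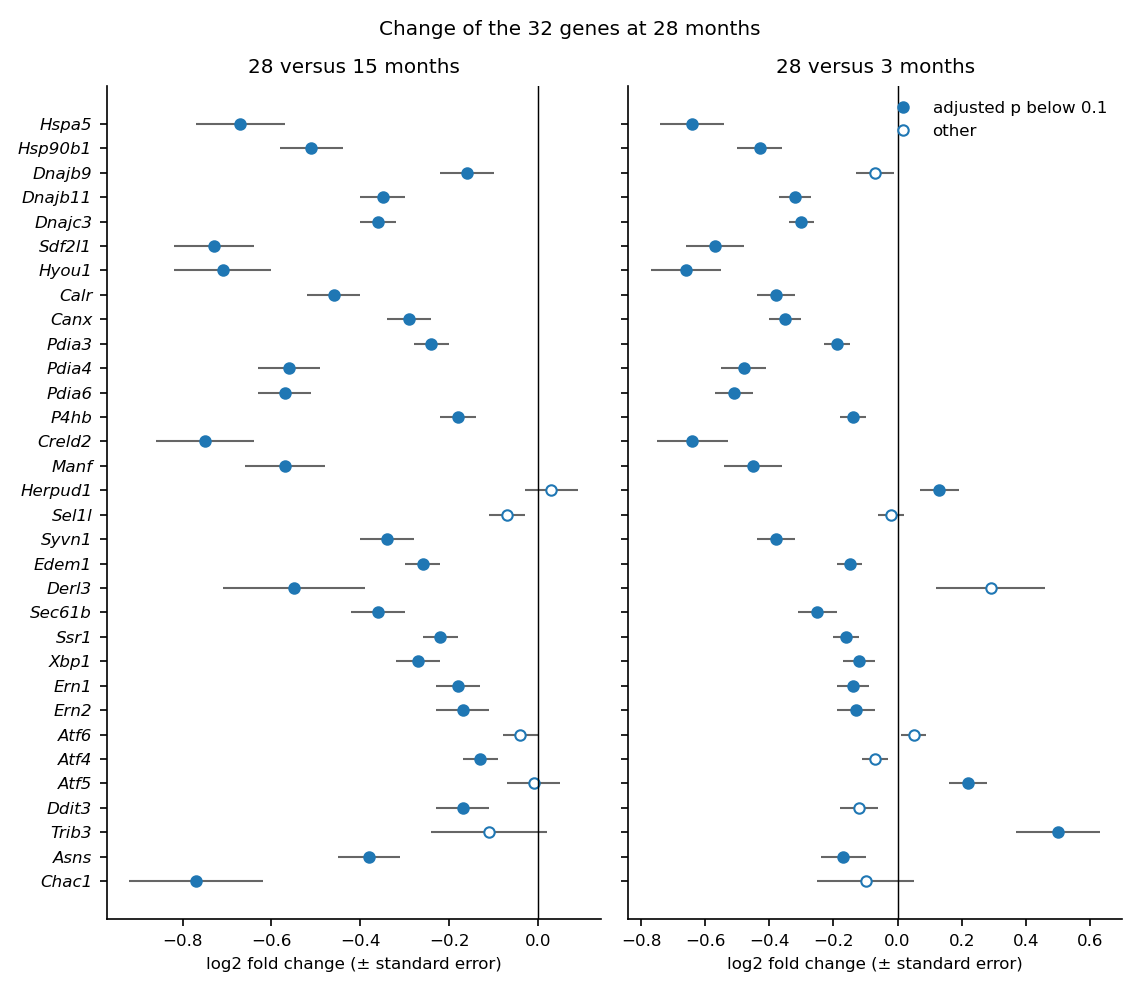
Log2 fold change of each of the 32 genes (horizontal axis, points, with bars of 1 standard error) at 28 months against 15 months (left) and against 3 months (right). Filled points passed an adjusted p of 0.1: 27 genes on the left, all below 0, and 25 on the right, of which Herpud1, Atf5 and Trib3 lie above 0.

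Of the 6 genes of the integrated stress response, 2 rose and 1 fell from 3 to 28 months, where 23.5% of all genes rose and 25.9% fell. From 15 to 28 months 4 of the 6 fell and 0 rose, where 22.2% of all genes fell and 20.2% rose. Atf4 (ENSMUSG00000042406, chr15:80255184-80257541), the factor translated when eIF2 is phosphorylated, had 179, 191 and 244 CPM at 3 months, then 167, 193 and 246 CPM at 9 months, and 177, 203 and 231 CPM at 15 months. It had 163, 184 and 228 CPM at 24 months and 166, 185 and 248 CPM at 28 months. The groups overlapped almost wholly, and Atf4 fell from 15 to 24 months (-0.14 ± 0.04, adjusted p = 0.0395) and from 15 to 28 months (-0.13 ± 0.04, adjusted p = 0.0159), but not from 3 to 28 months (-0.07 ± 0.04, adjusted p = 0.199). Ddit3 (CHOP, ENSMUSG00000025408, chr10:127290774-127296288), a factor tied to cell death under lasting stress, had 10.9, 12.9 and 17.6 CPM at 3 months, then 9.81, 12.4 and 15.3 CPM at 9 months, and 12.5, 13.1 and 16.8 CPM at 15 months. It had 9.76, 11.7 and 16.1 CPM at 24 months and 9.22, 11.7 and 16.2 CPM at 28 months. No rise of Ddit3 was called at any age, and it fell from 15 to 28 months (-0.17 ± 0.06, adjusted p = 0.0284), and from 3 to 28 months it had an estimate of -0.12 ± 0.06 (adjusted p = 0.113).

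Trib3, a pseudokinase that restrains ATF4 and CHOP, rose from 3 to 9 months (0.43 ± 0.14, adjusted p = 0.0524) and from 3 to 28 months by 41.8% (0.50 ± 0.13, adjusted p = 0.00137), with 0.31, 0.64 and 0.59 within the batches. Its lowest, median and highest mouse had 0.717, 0.942 and 1.56 CPM at 3 months and 0.166, 1.34 and 1.73 CPM at 28 months. At 28 months 17 of 18 mice were above the 3-month median, and the other had 4 reads of Trib3, the lowest count of any member. Atf5 rose by 16.1% from 3 to 28 months (0.22 ± 0.06, adjusted p = 0.00382). Asns, asparagine synthetase, fell from 15 to 28 months (-0.38 ± 0.07, adjusted p = 7.91e-06) and from 3 to 28 months (-0.17 ± 0.07, adjusted p = 0.0324). With goblet and plasma cell scores in the model its estimates were -0.05 (adjusted p = 0.773) and 0.00 (adjusted p = 0.966), so both calls were lost. Chac1, which breaks down glutathione, had medians of 2.41, 2.92, 3.97, 3.21 and 2.38 CPM at the 5 ages in order. It fell by 41.4% from 15 to 28 months (-0.77 ± 0.15, adjusted p = 2.06e-05) and had an estimate of -0.10 ± 0.15 from 3 to 28 months (adjusted p = 0.629).

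Other genes of the same pathways, which are not members, were counted from lists of known function. Of 62 other endoplasmic reticulum genes, 44 fell and 2 rose from 3 to 28 months, with a median log2 fold change of -0.11, against 25.9% and 23.5% of all genes. From 15 to 28 months 47 fell and 2 rose, with a median of -0.17, against 22.2% and 20.2% of all genes. The largest falls from 3 to 28 months were those of Bhlha15 (MIST1, the factor of secretory architecture, -0.73 ± 0.15, adjusted p = 8.22e-05), of Mlec (malectin, which binds glucose-bearing sugar chains, -0.40 ± 0.04, adjusted p = 3.14e-12) and of Spcs2 (signal peptidase subunit, -0.28 ± 0.05, adjusted p = 4.24e-06). The 2 that rose were Erlec1, a lectin of degradation (0.21 ± 0.04, adjusted p = 5.94e-06), and Mbtps2, the protease that cuts ATF6 (0.18 ± 0.04, adjusted p = 0.000244). Of 36 genes of the integrated stress response 34 were tested, and 11 fell and 6 rose from 3 to 28 months, with a median of -0.07, which is near the shares over all genes given above. In this list 18 fell and 3 rose from 15 to 28 months, with a median of -0.09. The largest falls from 3 to 28 months were Gdf15, a stress hormone (-0.37 ± 0.15, adjusted p = 0.0336), Eif2s1, the phosphorylated eIF2 subunit (-0.24 ± 0.05, adjusted p = 4.07e-05), and Yars, a tRNA synthetase (-0.23 ± 0.05, adjusted p = 0.000251). The largest rises were Aldh1l2, of mitochondrial folate metabolism (0.32 ± 0.12, adjusted p = 0.0222), Vldlr, a lipoprotein receptor (0.25 ± 0.07, adjusted p = 0.00154), and Eif2ak1, the heme-regulated eIF2 kinase (0.17 ± 0.03, adjusted p = 7.52e-07). Both lists together had 63 genes called from 3 to 28 months (49.4% of all genes). The count was 37 with goblet and plasma cell scores in the model (36.5%), 39 with the goblet score (42%) and 36 with the heat shock score (32.3%).

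Markers of secretory cells moved with the members in some comparisons and not in others. The goblet cell score, the mean log2 CPM of 7 markers, averaged 11.17, 11.36, 11.41, 11.19 and 10.93 over the 5 ages from youngest to oldest, and the summed markers ranged from 21800 to 51700 CPM at 15 months and from 24500 to 35000 CPM at 28 months. From 15 to 28 months 5 of the 7 goblet markers fell, among them Clca1 (-1.52 ± 0.19, adjusted p = 7.02e-10) and Agr2 (-0.48 ± 0.06, adjusted p = 7.46e-09), while the mucin Muc2 had -0.20 ± 0.06 (adjusted p = 0.00726) and Zg16 had 0.03 ± 0.06 (adjusted p = 0.723). The plasma cell score, also of 7 markers, averaged 5.46, 5.64, 5.95, 5.93 and 5.58 at the same ages, with summed markers from 3120 to 13800 CPM at 15 months and from 1880 to 6630 CPM at 28 months. From 15 to 28 months 4 of its 7 markers fell (Igha, Jchain, Mzb1 and Tnfrsf17), while from 3 to 28 months, where 22 members fell, 2 of the 7 rose and 0 fell. Of the goblet markers 5 fell and 2 rose from 3 to 28 months. In the late steps 2 goblet and 0 plasma markers fell from 15 to 24 months, and 3 goblet and 2 plasma markers fell from 24 to 28 months. From 3 to 9 months 2 goblet markers rose. Of 6 enterocyte markers 1 fell from 15 to 28 months, and of 5 smooth muscle markers 0 were called. Over the same ages 4 of 5 macrophage, 2 of 4 T cell and 2 of 4 endothelial markers rose. In turn 3 of 4 B cell and 3 of 6 enteroendocrine markers fell (4 of 6 for the latter from 3 to 28 months). Of 5 fibroblast markers 1 rose and 1 fell, 1 of 4 adipocyte markers rose, and 0 of 4 stem cell markers were called. Of all genes 22.2% fell and 20.2% rose from 15 to 28 months, as did 25.9% and 23.5% from 3 to 28 months. The part of these cells in the results was not tested.

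With both scores added to the model, fewer members and fewer of all genes were called. At 28 against 15 months 14 members fell in place of 27, while 16.4% of all genes were called in either direction in place of 42.4%. From 15 to 24 months the count was 3 in place of 17, with 6.77% of all genes in place of 13.5%. From 24 to 28 months it was 1 in place of 21, with 1.28% of all genes in place of 11.7%. For curvature it was 0 in place of 23, with 2.02% of all genes in place of 16.2%. From 3 to 28 months 18 members fell and 3 rose in place of 22 and 3, and 36.5% of all genes were called in place of 49.4%. In that comparison Hspa5 had -0.48 (adjusted p = 0.000506) in place of -0.64, Pdia6 -0.33 (adjusted p = 1.71e-06) in place of -0.51, and Canx -0.31 (adjusted p = 2.03e-05) in place of -0.35. Between 15 and 28 months Hspa5 had -0.33 (adjusted p = 0.0883) in place of -0.67, and the calls of Pdia3, P4hb, Calr, Dnajb11, Creld2, Manf, Syvn1, Atf4, Ddit3, Asns, Sec61b, Ssr1 and Derl3 were lost. From 3 to 28 months those of Pdia3, P4hb, Ern2 and Asns were lost. For Ern2 the fall from 15 to 28 months was larger with both scores, at -0.29 (adjusted p = 0.0109) in place of -0.17. The goblet score alone left 11 members called from 15 to 28 months (18.1% of all genes) and the plasma score alone 26 (37.8%). Agr2 and Mzb1 themselves act in the endoplasmic reticulum, and with both scores computed without them 20 members were called from 15 to 28 months (19.5% of all genes) and 23 from 3 to 28 months (38.2%). These fits do not tell a change in cell number from a change of RNA within secretory cells.

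**Figure D4:**
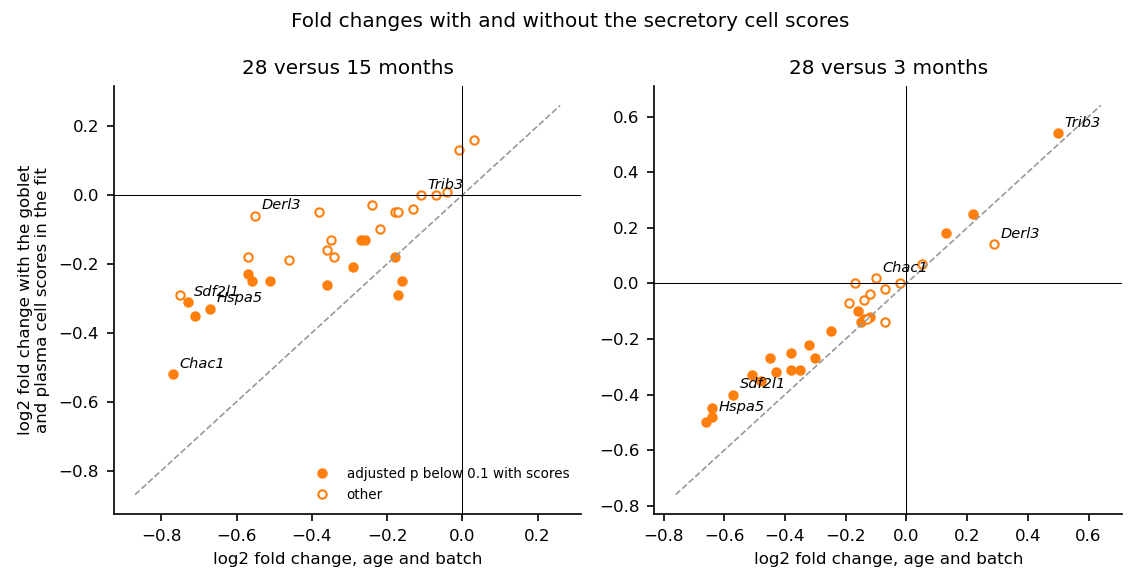
Log2 fold change of the 32 genes with age and batch in the model (horizontal axis) and with the goblet and plasma cell scores added (vertical axis), at 28 against 15 months (left) and 28 against 3 months (right). The dashed line marks equal values and filled points are called with the scores (14 left, 21 right): most falls are smaller with the scores, by more on the left than on the right.

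Across mice of the same age, members followed these scores to different degrees. Correlations were computed over 83 mice from log2 CPM after removal of age and batch means, with a two-sided permutation test within ages and adjustment over the 8 relations. Derl3 followed the plasma cell score most closely (Pearson's r = 0.91, Spearman's rho = 0.91, permutation p = 1e-05 for both, the smallest these permutations can give, and 2e-05 after adjustment). Without the 2 mice farthest from the median score r was 0.90, and it was 0.96, 0.88 and 0.90 within the batches. The 3 mice with the highest Derl3, of 24, 15 and 15 months at 24.7, 23.5 and 23 CPM, were also the 3 with the highest plasma cell scores. Xbp1 followed the plasma cell score with r = 0.72 (rho = 0.71, adjusted permutation p = 2e-05, 0.70 without 2 mice, 0.77, 0.75 and 0.66 within the batches) and the goblet cell score with r = 0.51 (rho = 0.52, adjusted permutation p = 2e-05, 0.55 without 2 mice). Derl3 had r = 0.55 with the goblet cell score (rho = 0.56, adjusted permutation p = 2e-05, 0.58 without 2 mice).

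Hspa5 had r = 0.42 with the goblet cell score (rho = 0.39, adjusted permutation p = 0.00012 for r, 0.41 without 2 mice) and r = 0.31 with the plasma cell score (rho = 0.31, adjusted permutation p = 0.00196 for r, 0.31 without 2 mice). Ern2, although known from goblet cells, ran against both scores, with r = -0.34 for goblet cells (rho = -0.20, adjusted permutation p = 0.00182 for r and 0.0689 for rho, -0.31 without 2 mice) and r = -0.45 for plasma cells (rho = -0.39, adjusted permutation p = 3.2e-05 for r, -0.41 without 2 mice). When the goblet score was taken as the median instead of the mean of its markers, its r was -0.18 with Ern2 (adjusted permutation p = 0.193), 0.01 with Derl3 (0.927), 0.04 with Xbp1 (0.819) and 0.15 with Hspa5 (0.282), so none of the goblet relations held there. With the plasma score taken as a median, r with Hspa5 was 0.12 (adjusted permutation p = 0.35), so that relation did not hold either, while the plasma relations of Derl3 (0.71), Xbp1 (0.57) and Ern2 (-0.32) did. Mice share libraries between the 2 sides of each relation, and the markers include endoplasmic reticulum genes.

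**Figure D5:**
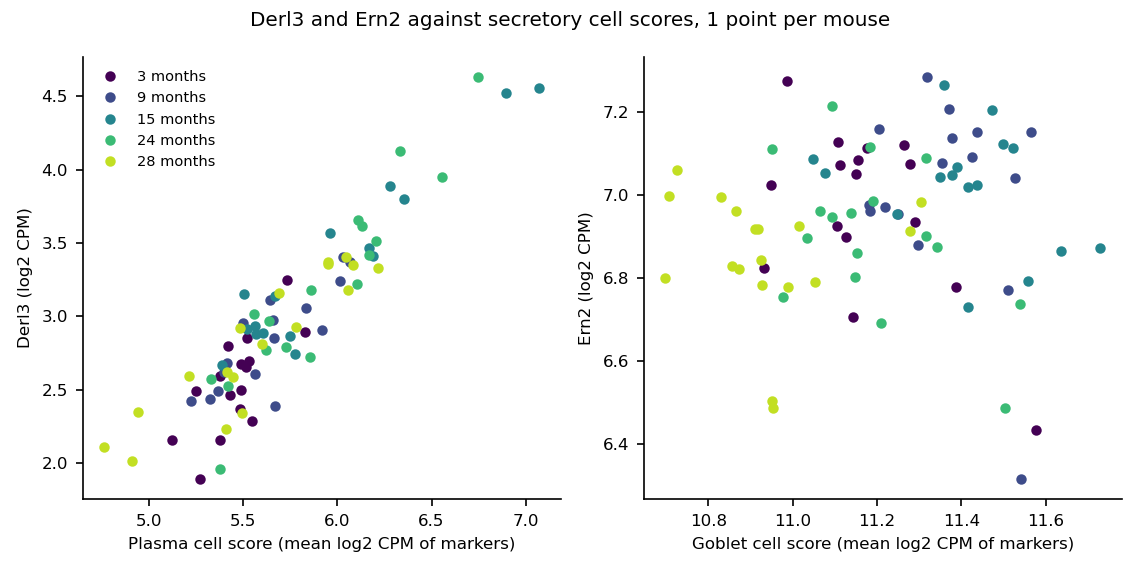
Derl3 against the plasma cell score (left) and Ern2 against the goblet cell score (right), 1 point per mouse, both axes in log2 CPM and coloured by age. The Derl3 points lie along a rising band at every age, and the Ern2 points scatter widely with no rising band.

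Heat shock and immediate early genes, which also answer the handling of tissue, moved with the members in some comparisons and not in others. The 8 such genes scored were Hspa1a, Hspa1b, Dnajb1, Hsph1, Fos, Egr1, Jun and Atf3, and the part of handling in the results was not tested. The mean score of these 8 genes averaged 5.66, 5.21, 5.43, 5.08 and 4.98 at 3, 9, 15, 24 and 28 months. Its SD over mice was 0.668 at 3 months and 0.178 at 28 months. From 3 to 28 months 5 of the 8 fell, with -2.86 ± 0.37 for Hspa1a (adjusted p = 1.08e-09) and -2.01 ± 0.25 for Hsph1 (adjusted p = 3.3e-10), both cytosolic chaperones. Of the 8 genes 4 fell from 15 to 28 months and 3 from 15 to 24 months. From 24 to 28 months, where 21 members fell, 0 of the 8 were called by edgeR, with a median log2 fold change of -0.04 and 1 gene at an unadjusted p below 0.05. From 3 to 9 months, where Syvn1 alone of the members fell, 4 of the 8 fell. At 3 months the score averaged 5.50, 5.67 and 5.83 in batches 1, 2 and 3, in which Hspa5 had medians of 843, 795 and 1090 CPM. With this score in the model 26 members were called from 15 to 28 months (25 lower), with 33.6% of all genes in place of 42.4%. From 24 to 28 months 22 were called (21 lower), with 12.3% of all genes in place of 11.7%, and from 3 to 28 months 22 (18 lower), with 32.3% in place of 49.4%. For 24 against 15 months the count was 2 in place of 17, with 6.71% of all genes in place of 13.5%. From 3 to 28 months Hspa5 had -0.24 (adjusted p = 0.0147), Creld2 -0.21 (adjusted p = 0.0717) and Xbp1 -0.01 (adjusted p = 0.952) in that model, and Pdia6 had -0.42 (adjusted p = 4.04e-07).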

How the data were processed

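Counts were measured by RNA-seq of colon in 83 male mice of 5 ages. Per the study's methods, the authors trimmed reads with cutadapt 2.8, aligned them with HISAT2 2.1.0 to GRCm38 with its Ensembl annotation, kept uniquely mapped reads with SAMtools 1.9 and counted pairs by strand with featureCounts of Subread 2.0.1 (upstream versions also stand in the submitters' processing notes). The deposited values are raw counts per gene and mouse, 23026370 to 75838290 per mouse. Symbols and merged exon lengths (for TPM) came from GENCODE M21, which gave a length to 37652 of 37764 genes. Age and batch came from the labels.

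Counts were tested with edgeR 4.0.16 (R 4.3.3) after filterByExpr (18325 genes) and TMM normalization, in 1 quasi-likelihood model of age and batch over all mice. P-values were adjusted over all genes by the Benjamini-Hochberg method, with a threshold of 0.1, the study's own. The study used DESeq2 for its tests. Curvature was tested with the quadratic to quartic terms of age. Scores were means of log2 CPM (prior count 2) over the markers, and correlations used 100000 permutations within age. Python 3.11.15 with pandas 2.3.3, scipy 1.17.1 and numpy 2.4.6 made the tables, and matplotlib 3.10.9 the plots. The scripts were tested on simulated counts.

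The members, lists and markers were chosen with earlier results of these data known. All members are reported, with values at every age for Hspa5, Xbp1, Atf4, Ddit3, Ern2, Derl3 and the 10 members with the lowest p over all ages, and in each pathway list the 3 largest rises and falls at 28 against 3 months among genes called. Creld2, Manf, Trib3 and Chac1 were given further values after these had been seen. Alternatives were DESeq2 1.42.0, its size factors, a threshold of 0.05, leaving out the filter or the batch term, a minimum of 10 counts in each mouse, a block for the replicate number, only the 2 ages compared, and goblet plus plasma cell or smooth muscle scores as covariates. For correlations they were a prior count of 0.5, DESeq2 size factors and the median over markers. Single scores, scores without Agr2 and Mzb1, the heat shock score, and fits without the deepest library or the acinar libraries were added after seeing the data.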

Additional observations from a re-analysis of the deposited data

How the results depend on the processing

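Counts of members called kept within 1.5 times of those reported under DESeq2, DESeq2 size factors, no batch term and the fit without the deepest library, in every comparison. At 9 against 3 months, where 2 members were called, the count was 1 with no filter, with at least 10 counts in every mouse, with the smooth muscle score and with only the 2 ages compared, and 0 at the 0.05 threshold (4.14% of all genes in place of 8.69%) and with the heat shock score (1.84%). It was 8, all lower, with goblet and plasma scores (11% of all genes), 10, all lower, with the goblet score (11.5%), 4 with the plasma score (3 lower, 10.1%) and 7 with both scores computed without Agr2 and Mzb1 (6 lower, 11.9%). With both scores 37 of the pathway genes (63 reported) were called at 28 against 3 months, where 36.5% of all genes were called in place of 49.4%. In that fit the counts of members were 3 at 24 against 15 months, 1 at 28 against 24, 14 at 28 against 15 and 0 for curvature. Without Agr2 and Mzb1 in the scores they were 3 (7.63% of all genes), 2 (2.08%) and, for curvature, 2 (3.91%). With the goblet score alone they were 3 at 24 against 15 months (10.4% of all genes), 1 at 28 against 24 (1.21%), 11 at 28 against 15 (18.1%) and 4 for curvature (3.69%). With that score 39 pathway genes were called at 28 against 3 months (42% of all genes). With the plasma score alone they were 7 at 28 against 24 months (4.31% of all genes in place of 11.7%) and 11 for curvature (7.39% in place of 16.2%). With the heat shock score they were 2 at 24 against 15 months (6.71% of all genes) and 36 pathway genes at 28 against 3 months (32.3%). The cause of these differences was not tested. Estimates that changed sign after a call were Asns at 28 against 3 months, 0.00 with both scores (adjusted p = 0.966), and Derl3 at 28 against 15 months, 0.25 with the goblet score (adjusted p = 0.421). With the median over markers, correlations no longer past the threshold were -0.18 (Ern2), 0.01 (Derl3), 0.04 (Xbp1) and 0.15 (Hspa5) with the goblet score and 0.12 for Hspa5 with the plasma score.

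Replicate numbers did not pair the mice: the median correlation of deviations was 0.010 between mice of the same number at different ages and -0.003 between other mice, and 27 of 161 pairs were over 0.1. With the replicate block, 17 members were called at 24 against 15 months (11.6% of all genes), 22 at 28 against 24 (9.71%), 24 at 28 against 3 (47.1%), 27 at 28 against 15 (39.2%) and 28 for any age difference (51.9%). Herpud1 at 28 against 3 months and Ddit3 for any age difference lost their call, and Xbp1 at 28 against 24 months gained one. Depth limits Trib3 and Chac1, the members with the fewest reads.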

Other observations

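Across mice of the same age and batch, most folding genes varied together with Hspa5. After removal of age and batch means over 83 mice, Pearson's r with Hspa5 was 0.94 for Hyou1 and Pdia4, 0.92 for Creld2, 0.90 for Dnajb11, 0.89 for Dnajc3 and 0.88 for Hsp90b1 and Manf, with Spearman's rho of 0.93, 0.93, 0.93, 0.90, 0.85, 0.89 and 0.87. Among the other folding genes r was 0.77 for Canx, 0.75 for Sdf2l1, 0.70 for Calr, 0.68 for Pdia3 and 0.61 for Pdia6. It was 0.39 for P4hb (rho 0.44) and 0.34 for Dnajb9 (rho 0.31). Chac1 (0.02, rho 0.12), Trib3 (-0.01, rho 0.18), Ern1 (0.08, rho 0.16) and Atf5 (-0.09, rho 0.04) had values near 0, and Ern2 had -0.36 (rho -0.30). Hspa5 and the genes closest to it also followed the heat shock and immediate early score. There r was 0.73 for Hspa5, 0.70 for Creld2, 0.62 for Hyou1 and Dnajc3, 0.61 for Pdia4, 0.58 for Hsp90b1, 0.57 for Dnajb11 and 0.56 for Manf. Among the other folding genes r with that score ran from 0.02 for P4hb to 0.53 for Canx. Syvn1 had 0.74 with Hspa5 and 0.72 with that score. These are descriptions without a test, and all values of a mouse share 1 library.

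The most variable members within an age were Derl3, with a residual SD of 0.462 on the log2 CPM scale, Trib3 with 0.411 and Chac1 with 0.408, and the least variable was P4hb with 0.0956. Hspa5 had 0.282. Over all ages together the highest mouse had 3.47 times the Hspa5 of the lowest and 1.54 times the P4hb.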
